A study of Mus musculus with 12 samples.

Results

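Antiviral interferon-stimulated genes encode the proteins with which a cell senses viruses and limits their entry, translation and replication. They were taken here as a list of 36 gene symbols, matched by symbol to a deposited table of 24493 gene symbols, and all 36 were in it and passed the filter on low values (at least 1 TPM in at least 3 libraries). Interferon-induced GTPases of the GBP and IRG families and MHC genes were not part of the list. The members were described in RNA from mouse pancreatic tumour cells, in 12 libraries that carry 4 genotype labels with 3 replicates each.

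The genotypes were EgfrKO, Klf5KO, Smad4KO and WT, labels for knockouts of the epidermal growth factor receptor, of a Krüppel-like transcription factor and of the common-mediator Smad of the TGF-beta pathway, and for wild-type cells. Every library came from cells named 6649c2, implanted under the skin of C57BL/6 mice and sorted from the resulting tumours, and every library had RNA extracted with a Qiagen RNeasy micro kit. The labels do not say how the cells were sorted, whether a knockout line is 1 clone or a pool of cells, or whether the 3 replicates came from separate mice, so the knocked-out gene and other differences between the lines cannot be told apart and p-values measure only the spread between these libraries. Levels are in TPM, a transcript's share of its library after allowing for length, scaled to the same total in every library, which keeps no sequencing depth.

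Interferons bind receptors whose Jak kinases phosphorylate Stat proteins. Type I and type III interferons act mainly through ISGF3, a complex that contains Stat2 and Irf9 and binds the interferon-stimulated response element (ISRE), while interferon gamma acts mainly through the gamma-activated site (GAS). Tumour cells can make interferon themselves or receive it from immune cells around them, and many members answer to more than 1 kind of interferon.

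Start-site windows of 300 bases, from 250 before to 50 after the annotated transcription start, were read from RefSeq (build GRCm38.p6) because most members moved together. Of the 36 members, 28 had a window and some had more than 1, giving 31 windows. The ISRE core was searched as the letters GAAANNGAAA or TTTCNNTTTC, where N is any base, which covers both strands, and the GAS core as TTCNNNGAA, which reads alike on both. The ISRE core was found in 14 of 31 windows (45.2%), against 3.44% of all 32851 windows in the RefSeq table. The GAS core was found in 6 of 31 windows (19.4%), against 8.3% of all windows. An ISRE core lay in a window of 13 of the 28 genes, namely Ifih1, Isg15, Oas3, Oas1a, Trim21, Trim30a, Ifitm3, Bst2, Stat2, Rsad2, Eif2ak2, Ifit3 and Ifit1. No such letters lay in these windows of Irf7, Oasl1, Oasl2, Ubd, Cmpk2, Ifit2, Ifi44, Samd9l, Parp12, Herc6, Xaf1, Trim25, Ifi35, Irf9 and Dtx3l, which says nothing of other windows or of factors. A match is a description of letters and not a binding site. The windows of the 3 ISRE-bearing members with the highest mean TPM are shown, each on the minus strand and printed 5′ to 3′ with the ISRE cores in capitals.
Ifitm3, chr7:141010695-141010994: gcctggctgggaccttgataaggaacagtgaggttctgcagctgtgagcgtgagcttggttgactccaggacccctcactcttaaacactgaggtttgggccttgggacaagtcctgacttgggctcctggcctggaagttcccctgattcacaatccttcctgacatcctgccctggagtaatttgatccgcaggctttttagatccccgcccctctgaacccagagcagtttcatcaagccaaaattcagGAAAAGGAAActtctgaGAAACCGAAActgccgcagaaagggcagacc
Bst2, chr8:71537423-71537722: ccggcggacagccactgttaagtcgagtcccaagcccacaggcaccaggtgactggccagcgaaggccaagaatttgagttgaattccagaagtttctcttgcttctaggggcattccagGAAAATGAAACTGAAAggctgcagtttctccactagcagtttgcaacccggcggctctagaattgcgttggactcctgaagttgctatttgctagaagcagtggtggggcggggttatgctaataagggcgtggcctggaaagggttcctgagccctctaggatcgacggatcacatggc
Isg15, chr4:156200769-156201068: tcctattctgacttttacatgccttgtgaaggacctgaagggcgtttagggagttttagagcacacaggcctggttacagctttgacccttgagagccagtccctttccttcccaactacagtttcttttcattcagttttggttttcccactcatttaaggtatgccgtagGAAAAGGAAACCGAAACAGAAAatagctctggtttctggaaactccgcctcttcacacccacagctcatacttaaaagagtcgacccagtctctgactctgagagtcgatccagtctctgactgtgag
In Isg15 the 3 cores overlap and form 1 run of capitals that begins 78 bases before the start, and in Bst2 the 2 cores overlap from 130 bases before it. In Ifitm3 the 2 cores are separate and lie after the start, at positions 3 and 20 of the transcript. The first ISRE-core run of 4 further members that differed between genotypes, chosen after their values were seen, is shown with 5 bases on either side.
Oas1a, minus strand, chr5:120907525-120907550: ctcggGAAATGGAAACTGAAAatcta
Oas3, minus strand, chr5:120777720-120777739: gaggaGAAAACGAAAgtgaa
Ifit1, plus strand, chr19:34640780-34640799: ttcagTTTCACTTTCcagtc
Ifit3, plus strand, chr19:34583368-34583387: gtaagTTTCACTTTCctctt

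The targeted genes were read first. Egfr, the receptor, averaged 4.29 ± 0.76 TPM in EgfrKO, 6.93 ± 1.45 TPM in Klf5KO-labelled, 7.95 ± 1.88 TPM in Smad4KO and 13.1 ± 0.85 TPM in WT libraries (SD, n = 3 each). It fell in all 3 comparisons with WT, and was lower in EgfrKO than in Klf5KO-labelled (-0.58 ± 0.17, limma adjusted p = 0.0124) and Smad4KO libraries (-0.75 ± 0.17, 0.00544). Klf5 averaged 93.8 ± 6.35 TPM in the libraries labelled Klf5KO and 112 ± 16.8 TPM in WT, and its libraries overlapped (log2 fold change -0.25, adjusted p = 0.0411). That level does not check the Klf5KO label, so those libraries are called Klf5KO-labelled here. Smad4 averaged 30.7 ± 2.39 TPM in Smad4KO and 75.5 ± 4.45 TPM in WT. Between 12592 and 13141 genes reached 1 TPM in a library. Pearson's r of log2(TPM + 1) over genes, which are not independent replicates, was 0.98 to 0.988 between libraries of a genotype and 0.917 to 0.966 between genotypes. Against WT, 4 of 7 tumour epithelial markers tested rose and 1 fell in EgfrKO, and 1 rose and 5 fell in Klf5KO-labelled libraries. All 7 rose in Smad4KO libraries. Of all genes tested 31.3%, 55.2% and 32.2% rose and 12%, 11.1% and 17.4% fell in these comparisons. Krt19, a duct keratin, was at 714 TPM or more in every library, while Epcam, an epithelial surface protein, was at 1.21 to 1.36 TPM in EgfrKO, 0.314 to 0.679 TPM in Klf5KO-labelled and 36.8 to 41.0 TPM in Smad4KO libraries, against 11.4 to 14.6 TPM in WT.

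Marker genes of other cell types were present, and in bulk RNA fewer cells of a type and less RNA per cell cannot be told apart. The 10 macrophage markers summed to 1260 to 1350 TPM in EgfrKO, 1070 to 1690 TPM in Klf5KO-labelled, 185 to 814 TPM in Smad4KO and 745 to 1480 TPM in WT libraries, and none was at 0. None of the 10 passed the test in EgfrKO or in Klf5KO-labelled libraries, and 3 fell in Smad4KO. The 7 general leukocyte markers summed to 164 to 169 TPM in EgfrKO and 164 to 253 TPM in Klf5KO-labelled libraries. Their sums were 52.8 to 102 TPM in Smad4KO and 106 to 141 TPM in WT libraries. Against WT, 3 rose and 1 fell in EgfrKO, 5 rose in Klf5KO-labelled and 2 fell in Smad4KO libraries. Of all genes tested 31.3%, 55.2% and 32.2% rose and 12%, 11.1% and 17.4% fell in those comparisons. After the median-of-ratios scaling described below, 1 of the 7 rose and 1 fell in EgfrKO. With that scaling 1 rose in Klf5KO-labelled and 2 fell in Smad4KO libraries. Of all genes 18%, 24.6% and 25.1% then rose and 22.2%, 27.5% and 24.7% fell. The 9 T and NK cell markers summed to 9.76 to 12.7 TPM in EgfrKO, 12.2 to 19 TPM in Klf5KO-labelled, 8 to 11.2 TPM in Smad4KO and 2.3 to 5.13 TPM in WT libraries, with Ncr1 listed at 0 in all Smad4KO libraries. Of the 6 T and NK markers tested, 5 rose in EgfrKO, 5 in Klf5KO-labelled and 3 in Smad4KO libraries against WT. These counts were the same after that scaling. The 7 fibroblast markers summed to 113 to 122 TPM in EgfrKO and 284 to 599 TPM in Klf5KO-labelled libraries. Their sums were 46.2 to 72.7 TPM in Smad4KO and 50.4 to 130.5 TPM in WT libraries. All 7 rose in Klf5KO-labelled libraries as deposited, and 4 did after that scaling. The 5 endothelial markers summed to 6.89 to 9.36 TPM in EgfrKO, 12.2 to 15.4 TPM in Klf5KO-labelled, 2.49 to 3.39 TPM in Smad4KO and 2.38 to 3.45 TPM in WT libraries, and both that were tested rose in EgfrKO and in Klf5KO-labelled libraries. The 5 plasmacytoid dendritic cell markers, of cells known for making type I interferon, summed to at most 2.03 TPM in any library. The part of these cells in the results on the members was not tested.

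Most members were higher in each knockout label than in WT. The 36 members together made up 1901 to 2021 TPM in EgfrKO, 1974 to 2102 TPM in Klf5KO-labelled, 1463 to 1684.5 TPM in Smad4KO and 959 to 1351 TPM in WT libraries. Ifitm3 and Bst2 were the most abundant members under every label, and without them the members made up 875 to 958, 757 to 919 and 813 to 862.5 TPM in the same 3 knockout labels and 284 to 420.0 TPM in WT. On average over members, log2(TPM + 1) was 4.47 to 4.63 in EgfrKO, 4.25 to 4.475 in Klf5KO-labelled, 4.34 to 4.45 in Smad4KO and 2.99 to 3.53 in WT libraries. No knockout library overlapped the WT libraries in that average.

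**Figure D1:**
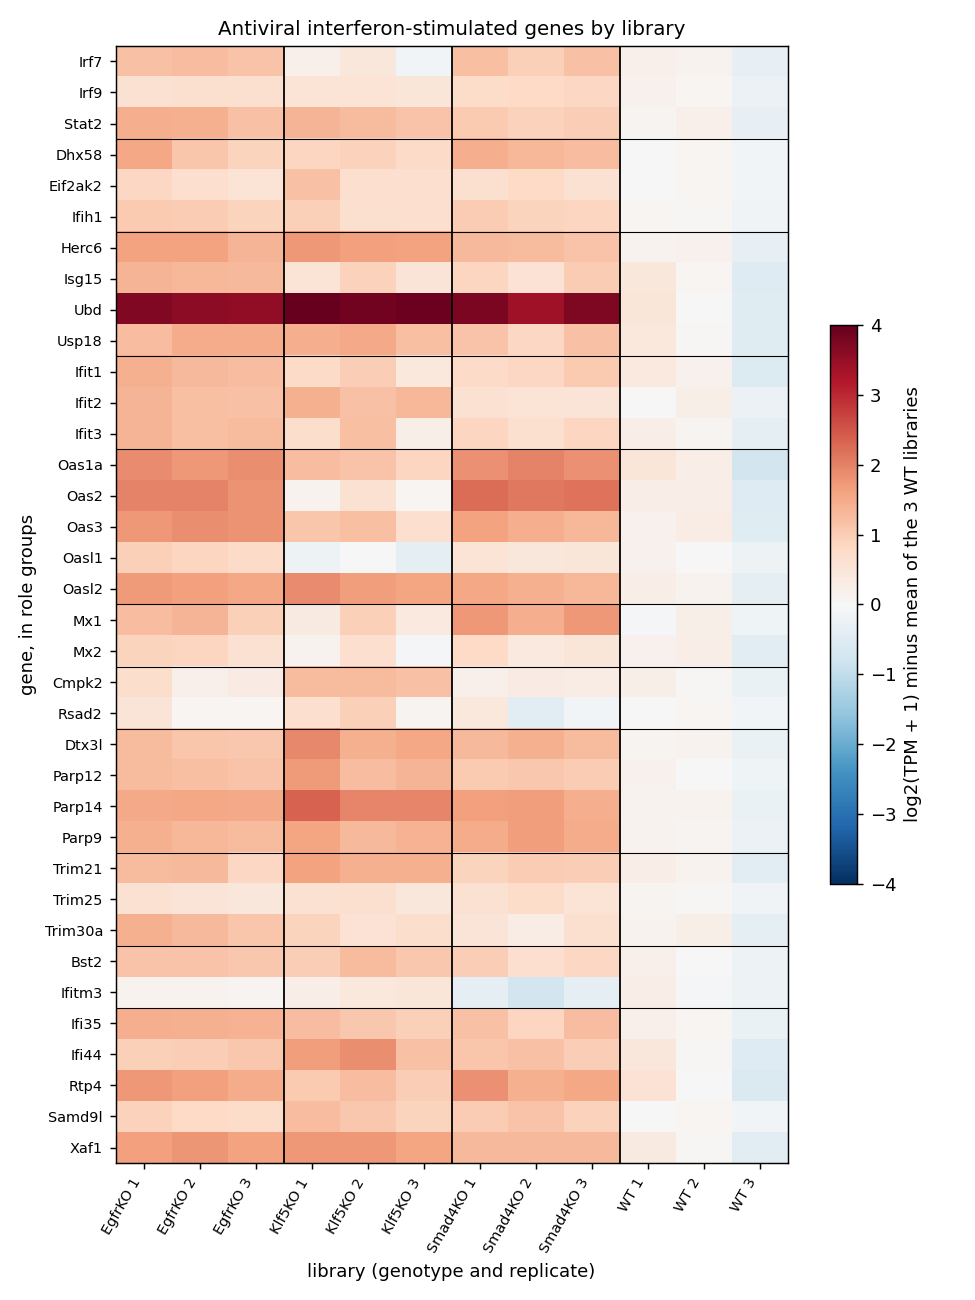
Heat map of the 36 members (rows, grouped by role) in each of the 12 libraries (columns), as log2(TPM + 1) minus the mean of the 3 WT libraries, red for higher and blue for lower. Ubd is the darkest row in all 9 knockout libraries, Oas2, Irf7 and Oasl1 are near WT in the Klf5KO-labelled columns, Ifitm3 is blue in Smad4KO, and the third WT column is the bluest of the WT columns.

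Against WT, 33 of 36 members rose in EgfrKO and none fell, with limma on log2(TPM + 1) at an adjusted p under 0.05 over 13662 genes. Of all genes tested, 31.3% rose in that comparison. At an unadjusted p under 0.05, limma called 34 members higher and 0 lower. The members' median log2 fold change was 1.22, against 0.14 over all genes. In every EgfrKO library 33 members were above every WT library, as were 40.1% of all genes. Ifitm3, Rsad2 and Cmpk2 did not pass the test.

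In the Klf5KO-labelled libraries 32 members rose against WT and none fell, where 55.2% of all genes rose. At an unadjusted p under 0.05 the counts were 32 and 0. The members' median log2 fold change was 1.07, against 0.31 over all genes. All Klf5KO-labelled libraries were above every WT library for 30 members, and for 57.1% of all genes. Irf7, Oas2, Oasl1 and Mx2 did not pass the test.

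In Smad4KO 32 members rose, where 32.2% of all genes did, and 1 fell, where 17.4% of all genes did. The gene that fell was Ifitm3. The members' median log2 fold change was 1.03, against 0.10 over all genes. All Smad4KO libraries were above every WT library for 33 members, and for 38.3% of all genes. Rsad2, Cmpk2 and Mx2 did not pass the test. The 3 comparisons share the same WT libraries, so they are not independent of each other.

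TPM is a share, and the median gene itself was shifted up in each knockout label by the values above, most in Klf5KO-labelled libraries. After median-of-ratios scaling, which brings the median log2 fold change over all genes to 0.003 in EgfrKO, -0.01 in Klf5KO-labelled and 0.002 in Smad4KO libraries, 33 members rose in EgfrKO, where 18% of all genes did, with a median of 1.11. With the same scaling 25 members rose in Klf5KO-labelled libraries, where 24.6% of all genes did, and 1, Oasl1, fell, where 27.5% did, with a median of 0.72. In Smad4KO 32 members rose after scaling, where 25.1% of all genes did, and 1, Ifitm3, fell, where 24.7% did, with a median of 0.93. The members called higher in Klf5KO-labelled libraries as deposited and not after scaling were Isg15, Ifit1, Ifit3, Mx1, Irf9, Ifitm3 and Rsad2.

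**Figure D2:**
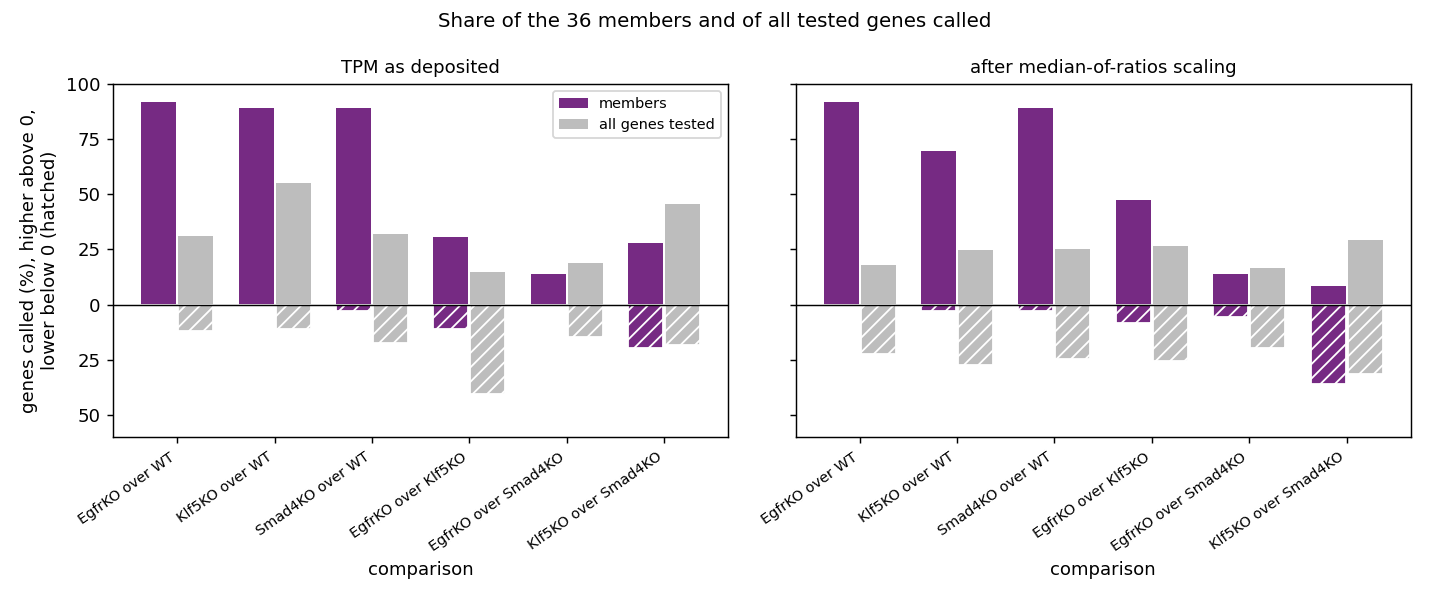
Bars give the percentage of the 36 members (purple) and of the 13662 genes tested (grey) called at an adjusted p under 0.05 in each of 6 comparisons, higher above 0 and lower, hatched, below it, for TPM as deposited (left) and after median-of-ratios scaling (right). Against WT the purple bars stand at 91.7%, 88.9% and 88.9% as deposited and at 91.7%, 69.4% and 88.9% after scaling, above the grey bars beside them, while between knockouts they are at 47.2% or less.

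The members' replicates lay furthest apart in WT, by the median member. WT replicate 3 was the lowest WT library for 36 of 36 members, and the median coefficient of variation of a member was 22.2% in WT, against 6.89% in EgfrKO, 13.7% in Klf5KO-labelled and 7.88% in Smad4KO libraries. Its macrophage (745 TPM), general leukocyte (106 TPM), T and NK (2.3 TPM), neutrophil (11 TPM) and fibroblast (50.4 TPM) marker sums were the lowest of the WT libraries too. Its endothelial (3.455 TPM), B cell (1.028 TPM) and plasmacytoid dendritic cell (1.256 TPM) sums were the highest of them. By mean log2 level its macrophage markers were at 5.189, against 5.177 and 5.997 in WT replicates 1 and 2. Without WT replicate 3, 32 members rose in EgfrKO, 28 in Klf5KO-labelled and 31 in Smad4KO libraries. With the fibroblast markers' mean log2 level as a covariate, added after seeing the data, 33 members rose in EgfrKO, 11 in Klf5KO-labelled and 32 in Smad4KO libraries. With the leukocyte markers' mean as a covariate 32, 26 and 33 members rose in the same labels, and in Klf5KO-labelled libraries the calls of Isg15, Ifit1 (0.698, adjusted p = 0.058), Ifit3 (0.68, 0.0651), Mx1 (0.334, 0.226), Ifitm3 (0.196, 0.244) and Rsad2 (0.408, 0.292) were lost. The fibroblast sum was higher in all 3 Klf5KO-labelled libraries than in any other library, so fibroblast RNA and that label cannot be told apart.

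Among the factors that carry the interferon signal, Irf7, which drives interferon genes and is itself interferon-induced, rose in EgfrKO and Smad4KO and did not pass the test in Klf5KO-labelled libraries. Irf7 (chr7:141263183-141266499) had 46.3, 48.1 and 45.3 TPM in EgfrKO, 23.0, 28.1 and 18.6 TPM in Klf5KO-labelled and 47.9, 39.9 and 46.8 TPM in Smad4KO libraries, against 23.1, 21.98 and 15.9 TPM in WT. The EgfrKO and Smad4KO libraries lay well above WT, and the Klf5KO-labelled libraries overlapped WT. Its log2 fold change against WT was 1.17 ± 0.15 (SE) in EgfrKO (adjusted p = 0.000108), 0.19 ± 0.15 in Klf5KO-labelled (0.299, and -0.16 after scaling) and 1.12 ± 0.15 in Smad4KO libraries (8.72e-05). Stat2 and Irf9, components of ISGF3, rose in all 3 comparisons with WT, Stat2 by 0.98 to 1.36 and Irf9 by 0.52 to 0.79 on the log2 scale. Irf9, at 33.8 ± 0.974 TPM in Klf5KO-labelled and 23.4 ± 3.44 TPM in WT libraries, did not pass the test there after scaling (0.18, adjusted p = 0.118).

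The double-stranded RNA sensors and the kinase that answers to such RNA rose in each knockout label. That held for 3 of 3 genes in every comparison with WT and with either scaling. Among all genes 31.3%, 55.2% and 32.2% rose as deposited in EgfrKO, Klf5KO-labelled and Smad4KO libraries, and 18%, 24.6% and 25.1% after scaling. Eif2ak2, the kinase PKR, which halts translation, had 24.5, 22.2 and 20.4 TPM in EgfrKO, 31.9, 21.95 and 21.97 TPM in Klf5KO-labelled and 21.4, 24.2 and 20.9 TPM in Smad4KO libraries, against 13.5, 14.5 and 12.5 TPM in WT. All 9 knockout libraries were above the WT libraries, the first Klf5KO-labelled library being the highest. Its log2 fold changes were 0.69 ± 0.13, 0.84 ± 0.13 and 0.67 ± 0.13 in EgfrKO, Klf5KO-labelled and Smad4KO libraries. Ifih1, the sensor MDA5, averaged 5.69 ± 0.399, 4.70 ± 0.676 and 5.37 ± 0.352 TPM in those labels and 2.37 ± 0.278 TPM in WT. Dhx58, the related helicase LGP2, averaged 4.39 ± 1.30, 3.21 ± 0.227 and 4.90 ± 0.467 TPM, and 1.33 ± 0.161 TPM in WT. All 3 calls in Klf5KO-labelled libraries were lost with the fibroblast covariate. The values were then 0.203 for Eif2ak2 (limma adjusted p = 0.586), 0.315 for Ifih1 (0.355) and 0.738 for Dhx58 (0.209).

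Ubd, which encodes the ubiquitin-like modifier FAT10 that marks proteins for the proteasome, had the largest fold change of all members in each comparison with WT. Ubd (chr17:37193892-37196101) had 76.2, 70.0 and 67.6 TPM in EgfrKO, 113, 84.1 and 88.6 TPM in Klf5KO-labelled and 78.6, 61.2 and 78.2 TPM in Smad4KO libraries, against 7.32, 4.84 and 3.23 TPM in WT. The lowest knockout library was far above the highest WT library. Its mean was 13.9, 18.5 and 14.2 times that of WT in EgfrKO, Klf5KO-labelled and Smad4KO libraries, with log2 fold changes of 3.61 ± 0.20, 4.01 ± 0.20 and 3.63 ± 0.20 (adjusted p = 4.67e-07, 7.98e-08 and 9.23e-08). Scaling left these at 3.48, 3.68 and 3.55.

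The ISG15 conjugation genes moved less than Ubd. Isg15, a ubiquitin-like modifier joined to proteins after interferon, averaged 81.7 ± 1.89 TPM in EgfrKO, 51.4 ± 8.44 TPM in Klf5KO-labelled, 57.5 ± 9.15 TPM in Smad4KO and 33.0 ± 10.9 TPM in WT libraries, and rose in all 3 comparisons as deposited. In Klf5KO-labelled libraries the call of Isg15 (0.67 ± 0.20, adjusted p = 0.0129) was lost after scaling (0.32, 0.241) without Klf5KO replicate 2 (0.54, 0.0533) and with the leukocyte covariate (0.476, 0.141). Usp18, which removes ISG15 and dampens interferon receptor signalling, rose by 1.40, 1.39 and 1.04 on the log2 scale in EgfrKO, Klf5KO-labelled and Smad4KO libraries. Herc6, the main ISG15 ligase in mice, rose by 1.52, 1.67 and 1.24 in the same order of labels.

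Of the IFIT proteins, Ifit1 binds viral RNA that lacks the host's cap methylation. All 3 IFIT genes rose in each comparison with WT as deposited. Of all genes 31.3%, 55.2% and 32.2% rose in EgfrKO, Klf5KO-labelled and Smad4KO libraries. Ifit1, Ifit2 and Ifit3 lie close together on chromosome 19. Ifit3, the most abundant of them, had 53.4, 47.6 and 49.98 TPM in EgfrKO, 33.1, 47.6 and 23.7 TPM in Klf5KO-labelled and 37.0, 32.1 and 37.3 TPM in Smad4KO libraries, against 24.5, 21.7 and 15.1 TPM in WT. The EgfrKO and Smad4KO libraries were above WT, while the third Klf5KO-labelled library lay within the WT range. Of the 31-base stretches of Ifit3 transcripts, 61.8% also occur in its copy Ifit3b, so how reads were split between the 2 genes is uncertain. Ifit1 averaged 21.0 ± 1.54, 13.7 ± 2.80 and 15.3 ± 1.76 TPM in the knockout labels and 8.15 ± 2.88 TPM in WT. In Klf5KO-labelled libraries the calls of Ifit1 (0.72 ± 0.21) and Ifit3 (0.71 ± 0.21) were lost after scaling (0.39 and 0.37), and that of Ifit3 without WT replicate 3 (adjusted p = 0.0528). Ifit2 differed from both, at 10.8 ± 0.817 TPM in EgfrKO and 11.3 ± 1.04 TPM in Klf5KO-labelled libraries but 6.30 ± 0.189 TPM in Smad4KO, against 4.02 ± 0.798 TPM in WT.

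Active enzymes of the OAS family, on binding double-stranded RNA, make oligoadenylates that switch on RNase L. The listed genes of the family, with the OAS-like Oasl1 and Oasl2 among them, were called in full against WT in EgfrKO and Smad4KO. All 5 members rose in EgfrKO and in Smad4KO, with median log2 fold changes of 1.80 and 1.46, and 3 of 5 rose in Klf5KO-labelled libraries, with a median of 0.996. As deposited 31.3% of all genes rose in EgfrKO and 32.2% in Smad4KO. In the Klf5KO-labelled comparison 55.2% of all genes rose as deposited, so that count is near the share of all genes. After scaling 3 of the 5 still rose there, where 24.6% of all genes did, and 1 fell, where 27.5% did. Oas2 (chr5:120730333-120749886) had 16.1, 16.1 and 14.1 TPM in EgfrKO, 3.77, 5.53 and 3.54 TPM in Klf5KO-labelled and 19.1, 17.6 and 18.3 TPM in Smad4KO libraries, against 4.15, 4.10 and 1.99 TPM in WT. The EgfrKO and Smad4KO libraries stood apart from all others, and the Klf5KO-labelled libraries overlapped WT. Its log2 fold change was 1.93 ± 0.20 in EgfrKO (adjusted p = 1.94e-05), 0.28 ± 0.20 in Klf5KO-labelled (0.227, and 0.00 after scaling) and 2.17 ± 0.20 in Smad4KO libraries (3.53e-06).

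Oas1a (chr5:120896256-120907544) had 26.6, 24.1 and 26.1 TPM in EgfrKO, 16.9, 15.5 and 12.7 TPM in Klf5KO-labelled and 25.6, 28.5 and 26.0 TPM in Smad4KO libraries, against 9.43, 7.99 and 3.52 TPM in WT. No knockout library overlapped WT, and the Klf5KO-labelled libraries formed a level of their own between the others and WT. Its log2 fold changes were 1.82 ± 0.24, 1.08 ± 0.24 and 1.88 ± 0.24 in EgfrKO, Klf5KO-labelled and Smad4KO libraries. Since 68.7% of the 31-base stretches of Oas1a transcripts also occur in Oas1g, the split of reads between these copies is uncertain. Oas3 averaged 12.3 ± 0.545, 6.71 ± 1.46 and 9.54 ± 1.01 TPM in the knockout labels and 2.92 ± 1.05 TPM in WT, and rose in all 3 comparisons.

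The OAS-like genes went different ways from each other in Klf5KO-labelled libraries. Oasl1, which in mice blocks translation of Irf7 mRNA, had 46.1, 42.9 and 40.1 TPM in EgfrKO, 20.03, 23.5 and 17.9 TPM in Klf5KO-labelled and 34.5, 32.2 and 32.4 TPM in Smad4KO libraries, against 26.2, 23.45 and 20.0 TPM in WT. It was above WT in every EgfrKO and Smad4KO library, by 0.87 ± 0.11 and 0.50 ± 0.11 on the log2 scale, and the Klf5KO-labelled libraries overlapped WT (-0.17 ± 0.11, adjusted p = 0.177). Oasl1 fell in Klf5KO-labelled libraries after scaling (-0.52, 0.00168), and as deposited without WT replicate 3 (-0.27, 0.0445) or without Klf5KO replicate 2 (-0.27, 0.0409). Oasl2, which also carries ubiquitin-like domains, had 38.9, 37.4 and 35.4 TPM in EgfrKO, 44.9, 38.6 and 36.2 TPM in Klf5KO-labelled and 34.8, 32.3 and 29.9 TPM in Smad4KO libraries, against 13.8, 12.7 and 8.34 TPM in WT. All its knockout libraries lay above WT, with the EgfrKO and Klf5KO-labelled libraries overlapping each other and the Smad4KO libraries below both, at log2 fold changes of 1.63, 1.72 and 1.43.

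MX proteins are dynamin-like GTPases that trap viral components, and in C57BL/6 mice Mx1 is known to be inactive. Both genes are annotated as transcribed pseudogenes in GRCm38.p6. Mx1 had 4.71, 5.29 and 3.72 TPM in EgfrKO, 2.11, 3.77 and 2.16 TPM in Klf5KO-labelled and 7.18, 5.70 and 7.17 TPM in Smad4KO libraries, against 1.32, 1.88 and 1.16 TPM in WT. Every knockout library was above WT, the Smad4KO libraries most. Its log2 fold changes were 1.18 ± 0.18, 0.57 ± 0.18 and 1.65 ± 0.18, and the call in Klf5KO-labelled libraries (adjusted p = 0.0179) was lost after scaling (0.33, 0.154) and without WT replicate 1, WT replicate 3 or Klf5KO replicate 2 (0.0508, 0.066 and 0.0758). Mx2 had 2.98, 2.87 and 2.28 TPM in EgfrKO, 1.38, 2.38 and 1.06 TPM in Klf5KO-labelled and 2.71, 1.79 and 2.01 TPM in Smad4KO libraries, against 1.43, 1.60 and 0.558 TPM in WT. Mx2 was the only member under 1 TPM in any library, WT replicate 3. It rose in EgfrKO (0.79 ± 0.23, adjusted p = 0.0152), but missed the threshold when WT replicate 3 (0.56, 0.0634) or EgfrKO replicate 1 (0.735, 0.052) was left out or with the leukocyte covariate (0.643, 0.0789), and it did not pass the test in Klf5KO-labelled (0.25) or Smad4KO libraries (0.56, 0.06).

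The nucleotide effectors Cmpk2 and Rsad2 are neighbours on chromosome 12, and neither passed the test in EgfrKO or Smad4KO. Cmpk2, a mitochondrial nucleotide kinase, had 3.12, 1.93 and 2.16 TPM in EgfrKO, 5.16, 5.07 and 4.75 TPM in Klf5KO-labelled and 1.92, 2.18 and 2.15 TPM in Smad4KO libraries, against 1.98, 1.62 and 1.10 TPM in WT. The Klf5KO-labelled libraries stood above all others (1.24 ± 0.15, adjusted p = 3.26e-05), while EgfrKO and Smad4KO libraries overlapped WT (0.41, 0.0502, and 0.28, 0.155). Rsad2, or viperin, which makes a chain-ending nucleotide, had 3.07, 2.01 and 2.06 TPM in EgfrKO, 3.61, 4.61 and 2.12 TPM in Klf5KO-labelled and 2.82, 1.12 and 1.66 TPM in Smad4KO libraries, against 1.93, 2.02 and 1.68 TPM in WT. Its libraries overlapped WT in EgfrKO and Smad4KO, and the lowest Klf5KO-labelled library lay just above WT. Rsad2 was at the threshold in Klf5KO-labelled libraries (0.59 ± 0.24, adjusted p = 0.05 when rounded), and the call was lost under most alternatives, including leaving out any 1 WT library.

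The ADP-ribosyltransferases and Dtx3l, a ubiquitin ligase that pairs with Parp9, rose together, 4 of 4 in each comparison with WT and with either scaling. Their median log2 fold changes were 1.27 in EgfrKO, 1.54 in Klf5KO-labelled and 1.44 in Smad4KO libraries. For comparison, 31.3%, 55.2% and 32.2% of all genes rose as deposited in the same order of labels, and 18%, 24.6% and 25.1% after scaling. Parp14 had 21.5, 21.6 and 21.2 TPM in EgfrKO, 38.9, 29.2 and 29.2 TPM in Klf5KO-labelled and 23.2, 23.8 and 20.4 TPM in Smad4KO libraries, against 7.60, 7.59 and 5.43 TPM in WT. No knockout library came near WT, and the Klf5KO-labelled libraries were the highest (2.09 ± 0.13, against 1.52 ± 0.13 in EgfrKO and 1.59 ± 0.13 in Smad4KO). Parp12 had 44.3, 42.8 and 40.9 TPM in EgfrKO, 60.5, 44.1 and 48.3 TPM in Klf5KO-labelled and 38.05, 39.1 and 37.1 TPM in Smad4KO libraries, against 20.4, 17.9 and 16.0 TPM in WT. Every knockout library of Parp12 was above WT. Parp9 averaged 33.6 ± 1.91, 35.8 ± 3.54 and 39.1 ± 3.04 TPM in the knockout labels and 12.7 ± 1.89 TPM in WT, and Dtx3l averaged 22.3 ± 1.89, 31.9 ± 6.01 and 25.3 ± 1.45 TPM, and 9.56 ± 1.52 TPM in WT. Parp9 (chr16:35938470-35972621) and Dtx3l (chr16:35926515-35939027) overlap at their starts, and the sources used here do not state whether counting used strand.

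TRIM proteins are ubiquitin ligases, and all 3 genes rose in each comparison with WT and with either scaling. In EgfrKO, Klf5KO-labelled and Smad4KO libraries 31.3%, 55.2% and 32.2% of all genes rose as deposited, and 18%, 24.6% and 25.1% after scaling. Trim25, which works with the RNA sensor RIG-I, had 33.4, 31.6 and 30.2 TPM in EgfrKO, 33.8, 34.8 and 29.9 TPM in Klf5KO-labelled and 33.5, 36.6 and 32.1 TPM in Smad4KO libraries, against 23.4, 22.6 and 19.5 TPM in WT. The knockout libraries overlapped each other and lay above WT, with log2 fold changes of 0.52, 0.57 and 0.62. Trim21, a receptor for antibodies in the cytosol, averaged 8.63 ± 1.67, 11.1 ± 0.869 and 7.47 ± 0.331 TPM in the knockout labels and 3.43 ± 1.01 TPM in WT. Trim30a averaged 6.27 ± 0.805, 3.98 ± 0.540 and 3.22 ± 0.537 TPM, and 2.04 ± 0.626 TPM in WT. Its call in Smad4KO (0.49 ± 0.17, adjusted p = 0.0292) was lost without WT replicate 3 (0.31, 0.12), without Smad4KO replicate 1 (0.47, 0.0758) and without Smad4KO replicate 3 (0.41, 0.0993). The fibroblast covariate ended all 3 calls in Klf5KO-labelled libraries. There Trim21 was at 0.755 (limma adjusted p = 0.156), Trim25 at 0.26 (0.333) and Trim30a at 0.25 (0.686).

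The membrane proteins were the most abundant members and went different ways in Smad4KO. Bst2, or tetherin, which holds budding virions at the surface, averaged 393 ± 10.1 TPM in EgfrKO, 394 ± 40.4 TPM in Klf5KO-labelled, 323 ± 33.2 TPM in Smad4KO and 183 ± 27.6 TPM in WT libraries, and rose in all 3 comparisons (1.11, 1.11 and 0.82). Ifitm3, an endosomal protein that blocks virus entry, had 664, 657.5 and 645 TPM in EgfrKO, 714.5, 805 and 831 TPM in Klf5KO-labelled and 465, 359.9 and 467.5 TPM in Smad4KO libraries, against 720.0, 572 and 519 TPM in WT. The Smad4KO libraries were below all others, and the EgfrKO and Klf5KO-labelled libraries overlapped WT. Its log2 fold change was 0.13 ± 0.12 in EgfrKO (adjusted p = 0.404, and -0.02 after scaling), 0.39 ± 0.12 in Klf5KO-labelled (0.0148) and -0.48 ± 0.12 in Smad4KO libraries (0.00638). Of the 31-base stretches of Ifitm3 transcripts, 20.5% also occur in other genes. Scaling kept the Smad4KO value (-0.59, 0.00459) and ended the Klf5KO-labelled call (0.03, 0.884), which was also lost without WT replicate 3 (0.28, 0.0662) and without Klf5KO replicate 3 (0.34, 0.0514).

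Of the other antiviral genes, all 5 rose in each comparison with WT and with either scaling. Their median log2 fold changes were 1.43, 1.09 and 1.09 in EgfrKO, Klf5KO-labelled and Smad4KO libraries, where 31.3%, 55.2% and 32.2% of all genes rose. After scaling 18%, 24.6% and 25.1% of all genes did. Samd9l, a restriction factor and growth suppressor, had 75.6, 69.8 and 66.1 TPM in EgfrKO, 93.7, 84.5 and 73.3 TPM in Klf5KO-labelled and 81.0, 87.8 and 75.3 TPM in Smad4KO libraries, against 40.2, 41.6 and 36.5 TPM in WT. All knockout libraries were above WT and overlapped one another. Xaf1, a partner of the apoptosis inhibitor XIAP, averaged 44.5 ± 2.72, 44.9 ± 2.78 and 34.1 ± 0.287 TPM in the knockout labels and 13.6 ± 3.70 TPM in WT. Rtp4, a chaperone of membrane receptors, averaged 28.4 ± 2.65, 19.3 ± 1.85 and 28.1 ± 4.23 TPM, and 9.03 ± 3.90 TPM in WT. Ifi35, a partner of Nmi, averaged 53.5 ± 1.19, 42.0 ± 4.06 and 42.2 ± 5.96 TPM, and 19.4 ± 3.19 TPM in WT. Ifi44 averaged 6.17 ± 0.328, 9.77 ± 2.49 and 6.56 ± 0.479 TPM, and 2.70 ± 1.22 TPM in WT. With the fibroblast covariate the Klf5KO-labelled calls of Ifi35 (0.766, limma adjusted p = 0.103), Ifi44 (0.728, 0.314) and Rtp4 (0.37, 0.647) were lost. Those of Samd9l and Xaf1 were kept.

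**Figure D3:**
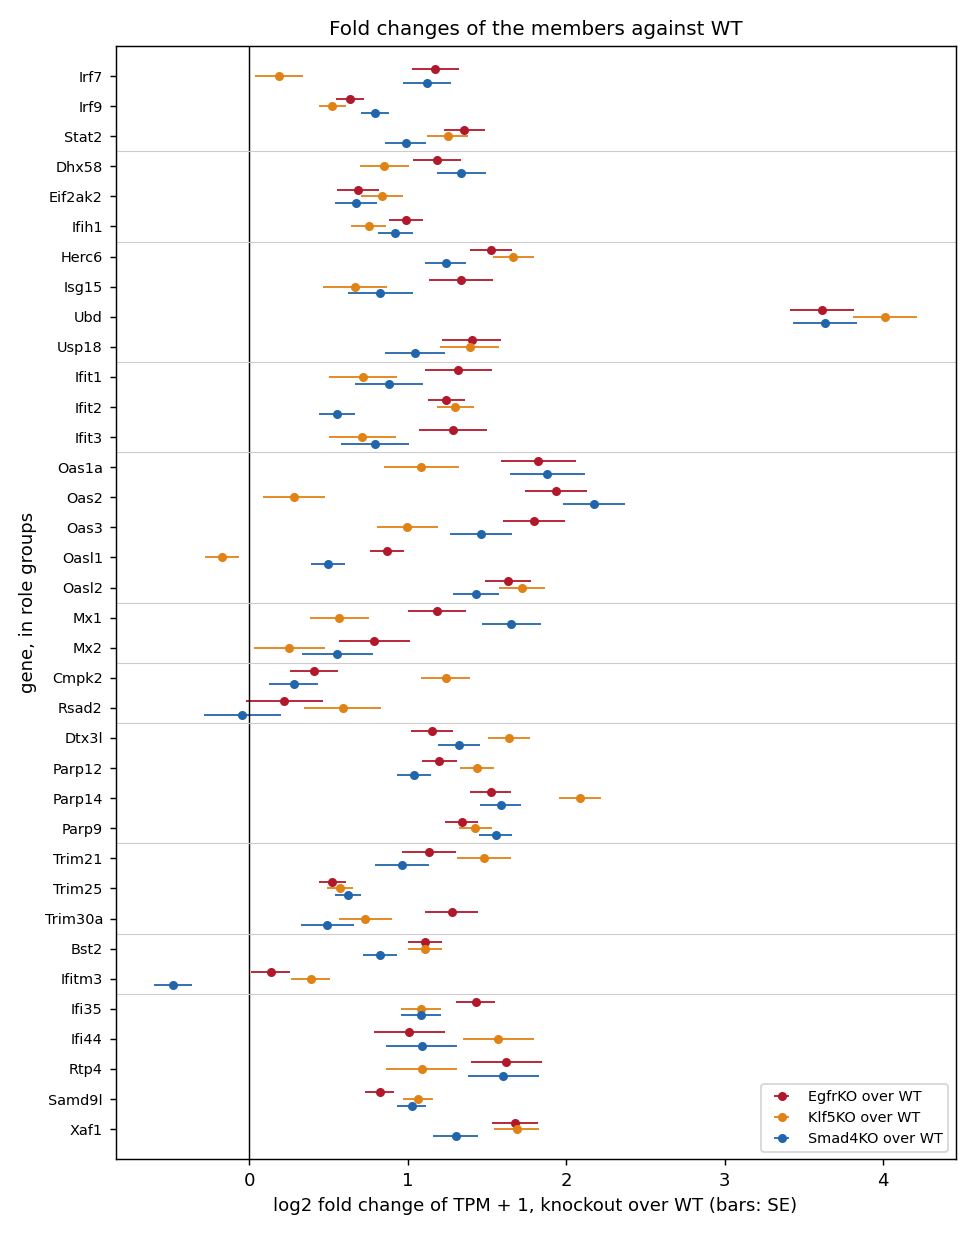
Points give the log2 fold change of TPM + 1 against WT for each member, red for EgfrKO, orange for Klf5KO-labelled and blue for Smad4KO libraries, with bars of 1 standard error. Most points lie between 0.5 and 2, Ubd stands near 4, the orange points of Irf7, Oas2, Oasl1 and Mx2 lie near 0, and the blue point of Ifitm3 is the lowest at -0.48.

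Between knockout labels, EgfrKO over Klf5KO-labelled libraries gave 11 members higher, where 14.7% of all genes were higher, and 4 lower, where 40.5% were. The median log2 fold change was 0.01 over the members and -0.16 over all genes. The members higher in EgfrKO were Oas2 (1.65 ± 0.20, adjusted p = 3.57e-05), Oasl1 (1.04 ± 0.11, 1.34e-05), Irf7 (0.99 ± 0.15, 0.000204), Oas3 (0.80), Oas1a (0.74), Isg15 (0.67), Mx1 (0.62), Ifit1 (0.60), Ifit3 (0.57), Trim30a (0.55) and Ifi35 (0.34). The members lower in EgfrKO were Cmpk2 (-0.83 ± 0.15, 0.000748), Parp14 (-0.56), Dtx3l (-0.48) and Samd9l (-0.24, and -0.04 after scaling). Of the 5 OAS genes 4 were thus higher in EgfrKO, and Oasl2 did not pass the test (-0.09). After scaling 17 members were higher, where 26.4% of all genes were, and 3 were lower, where 25.3% were, with a median of 0.21. The count higher was 6 without EgfrKO replicate 1, 7 without EgfrKO replicate 2 and 5 without Klf5KO replicate 3.

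For EgfrKO over Smad4KO, limma called 5 members higher, where 18.7% of all genes were, and none lower, where 14.5% were; at an unadjusted p under 0.05 the counts were 10 higher and 2 lower. The 5 were Trim30a (0.79 ± 0.17, adjusted p = 0.00386), Ifit2 (0.69 ± 0.12, 0.00091), Ifitm3 (0.61 ± 0.12, 0.00252), Stat2 (0.37) and Oasl1 (0.37). The members' median was 0.17, against 0.04 over all genes. After scaling 5 were higher, where 16.5% of all genes were, and 2, Parp9 and Samd9l, were lower, where 19.6% were. The count higher was 3 without EgfrKO replicate 1, without EgfrKO replicate 2 or without Smad4KO replicate 2, the Smad4KO library with the lowest macrophage sum (185 TPM). With the macrophage or the leukocyte markers' mean as a covariate it was 1, and with the fibroblast markers' mean 2. It was 12 in a fit of only these genotypes and 8 with the replicate number as a block. As deposited, 6 of 10 macrophage and 5 of 7 general leukocyte markers were higher in EgfrKO than in Smad4KO, and their part in these calls was not tested beyond these covariates.

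Klf5KO-labelled over Smad4KO libraries gave 10 members higher, where 45.5% of all genes were, and 7 lower, where 18.3% were. The lower ones were Oas2 (-1.89 ± 0.20, adjusted p = 6.24e-06), Mx1 (-1.09 ± 0.18, 0.000302), Irf7 (-0.93 ± 0.15, 0.000204), Oas1a (-0.80), Oasl1 (-0.67), Dhx58 (-0.49) and Irf9 (-0.27). The higher ones were Cmpk2 (0.96 ± 0.15, 0.000184), Ifitm3 (0.87 ± 0.12, 6.68e-05), Ifit2 (0.75), Rsad2 (0.63), Trim21 (0.52), Parp14 (0.50), Herc6 (0.43), Parp12 (0.40), Xaf1 (0.39) and Bst2 (0.29). After scaling 3 were higher, where 29.1% of all genes were, and 13 lower, where 31.2% were. The members' median was 0.10 as deposited and -0.14 after scaling, so its direction depends on the scaling, while Cmpk2, Ifitm3 and Ifit2 stayed higher and the 7 lower genes stayed lower with both. Without Smad4KO replicate 3 the count higher was 6. All 7 fibroblast, 7 of 10 macrophage and 5 of 7 general leukocyte markers were higher in Klf5KO-labelled than in Smad4KO libraries. With the leukocyte or the macrophage covariate the count higher was 5, and with the fibroblast covariate 0 were higher and 3 lower; the leukocyte covariate left 4 lower.

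**Figure D4:**
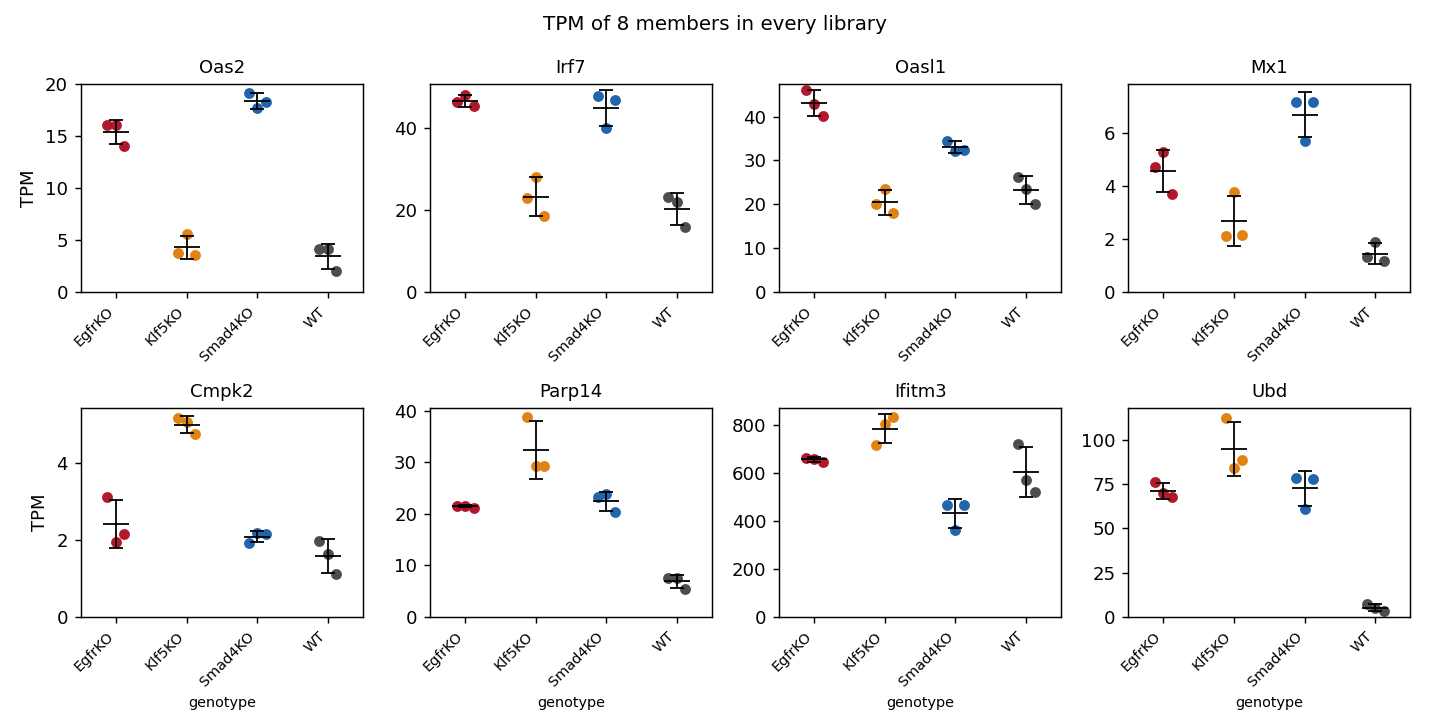
TPM of 8 members in each library, with points for libraries, long bars for the mean and whiskers for the SD (n = 3 per genotype label); each vertical axis begins at 0. Oas2, Irf7 and Oasl1 are high in EgfrKO and Smad4KO and near WT in Klf5KO-labelled libraries, Cmpk2 is the reverse, Ifitm3 is lowest in Smad4KO and Ubd is high in all 9 knockout libraries.

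Genes of the pathway around the members were read from lists chosen with earlier results of these data known. Of 21 interferon genes, 13 were listed at 0 in every library, and Ifnb1, Ifna1, Ifna6, Ifna16, Ifne, Ifnk, Ifnz and Ifng were above 0 in at least 1. The highest value was 0.868 TPM, of Ifng in Klf5KO replicate 2, and none passed the filter on low values. Ifng, the gene of interferon gamma, had 0.161, 0.122 and 0 TPM in EgfrKO, 0.244, 0.868 and 0.376 TPM in Klf5KO-labelled and 0.0699, 0.0687 and 0.537 TPM in Smad4KO libraries, against 0.126, 0.197 and 0 TPM in WT. Ifnb1, the gene of interferon beta, was above 0 in 1 EgfrKO library (0.459 TPM) and 2 WT libraries (0.479 and 0.124 TPM). Ifna1, Ifna6 and Ifna16 are closely related copies, between which the split of reads is uncertain, and each was listed at 0.265 TPM in Klf5KO replicate 3 and at 0 elsewhere.

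Of 9 interferon receptor and Jak kinase genes, 4 rose and 1 fell in EgfrKO, 6 rose and 1 fell in Klf5KO-labelled, and 7 rose and 2 fell in Smad4KO libraries. Of all genes 31.3%, 55.2% and 32.2% rose and 12%, 11.1% and 17.4% fell in these comparisons, so the Klf5KO-labelled count is near that of all genes. Ifngr1, the ligand-binding chain of the interferon gamma receptor, had 99.95, 97.2 and 95.9 TPM in EgfrKO, 82.2, 87.3 and 72.9 TPM in Klf5KO-labelled and 127.5, 137 and 130.3 TPM in Smad4KO libraries, against 75.9, 74.6 and 70.0 TPM in WT. It was highest in Smad4KO (0.83 ± 0.06) and overlapped WT in Klf5KO-labelled libraries (0.13 ± 0.06). Ifngr2, the signalling chain, averaged 84.7 ± 2.48, 111 ± 8.73 and 111 ± 4.83 TPM in the knockout labels and 67.8 ± 2.46 TPM in WT. Il10rb, a chain shared by interferon lambda and interleukin receptors, averaged 39.8 ± 3.56, 39.0 ± 0.867 and 53.1 ± 2.15 TPM, and 29.9 ± 1.56 TPM in WT. After scaling 3 of the 9 rose and 2 fell in EgfrKO, 3 rose and 3 fell in Klf5KO-labelled, and 7 rose and 2 fell in Smad4KO libraries, where 18%, 24.6% and 25.1% of all genes rose and 22.2%, 27.5% and 24.7% fell.

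Of 9 further Stat, Irf and brake genes, 5 rose and 1 fell in EgfrKO, 6 rose and 1 fell in Klf5KO-labelled, and 5 rose and 1 fell in Smad4KO libraries. Against the 31.3%, 55.2% and 32.2% of all genes that rose, the Klf5KO-labelled count as deposited is again near the share of all genes. Of all genes 12%, 11.1% and 17.4% fell. After scaling 5, 5 and 4 of the 9 rose and 1, 2 and 1 fell. With that scaling 18%, 24.6% and 25.1% of all genes rose and 22.2%, 27.5% and 24.7% fell. Irf1, a factor that interferon gamma induces, averaged 164 ± 11.7, 162 ± 8.64 and 151 ± 9.21 TPM in EgfrKO, Klf5KO-labelled and Smad4KO libraries and 71.6 ± 6.56 TPM in WT. Irf8, a factor best known in myeloid cells, had 13.8, 12.1 and 13.0 TPM in EgfrKO, 37.0, 34.1 and 39.4 TPM in Klf5KO-labelled and 9.84, 7.61 and 10.4 TPM in Smad4KO libraries, against 8.85, 7.67 and 6.27 TPM in WT. The Klf5KO-labelled libraries stood apart (2.15 ± 0.13), and the Smad4KO libraries overlapped WT. Socs3, a brake on cytokine receptors, was the gene of this list that fell in each comparison, by 0.13, 0.61 and 0.32 on the log2 scale.

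Of 11 nucleic acid sensing genes, 8 rose in EgfrKO, 10 rose in Klf5KO-labelled libraries, and 8 rose and 1 fell in Smad4KO, where 31.3%, 55.2% and 32.2% of all genes rose. Zbp1, a sensor of left-handed nucleic acid, had 86.9, 74.5 and 85.2 TPM in EgfrKO, 126, 104 and 112.5 TPM in Klf5KO-labelled and 69.9, 64.2 and 66.05 TPM in Smad4KO libraries, against 27.5, 23.9 and 13.8 TPM in WT. All knockout libraries were above WT by a wide margin. Tlr3, an endosomal sensor of double-stranded RNA, averaged 9.92 ± 1.36, 12.4 ± 2.20 and 14.8 ± 0.840 TPM in the knockout labels and 4.09 ± 0.557 TPM in WT. Tmem173, or STING, the adaptor for DNA sensing, averaged 47.6 ± 1.38, 70.1 ± 5.61 and 54.5 ± 2.93 TPM, and 31.3 ± 3.13 TPM in WT. After scaling 7, 7 and 6 of the 11 rose in EgfrKO, Klf5KO-labelled and Smad4KO libraries. With that scaling 18%, 24.6% and 25.1% of all genes rose. In Smad4KO 1 of the 11 fell with either scaling, where 17.4% of all genes fell as deposited and 24.7% after scaling.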

How the data were processed

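RNA of sorted 6649c2 tumour cells was sequenced in 12 libraries, 3 for each genotype label taken from the titles. The authors deposited 1 table of gene-level TPM values, which per the submitters' processing notes came from Salmon with the mm10 build; the Salmon version and annotation were not given in the sources used here. TPM keeps no depth, so counting errors could not be given, and it cannot go through a count test. Genes with at least 1 TPM in at least 3 libraries (13662 of 24493) were fitted as log2(TPM + 1) with limma 3.58.1 in R 4.3.3, in 1 model of 4 genotype means with a trend in the spread. Each of 6 comparisons had two-sided p-values adjusted by Benjamini-Hochberg over all genes tested, with a threshold of 0.05, and every adjusted p in the text is from limma. The pseudocount of 1 makes fold changes of low genes smaller than the ratio of TPM. Fold changes are log2 of the first genotype named over the second, and errors are the SD over 3 libraries for TPM and the SE for fold changes. A second fit used TPM scaled by median of ratios. Alternatives changed the pseudocount, filter, scaling, spread model, replicate block, marker covariates and libraries used. Python 3.11.15 with pandas 2.3.3 and matplotlib 3.10.9 was used for sequences and figures. Stretches of 31 bases shared between transcripts of the GENCODE annotation marked genes whose reads are hard to assign. Values in every library are given for the most abundant member of each role group and for the 3 largest and 3 smallest fold changes against WT. The members and all lists were chosen with earlier results of these data known.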

Additional observations from a re-analysis of the deposited data

How the results depend on the processing

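Against WT, the counts of members called higher and their medians kept their direction under every alternative, and the counts stayed within 1.5 times of those reported, except in Klf5KO-labelled libraries with the fibroblast markers as a covariate, an alternative chosen after seeing the data, where 11 members were called higher. Leaving out 1 library at a time gave 32 to 34 members higher in EgfrKO, 28 to 31 in Klf5KO-labelled and 31 to 33 in Smad4KO libraries against WT. The count lower in Klf5KO-labelled libraries was 1 after median-of-ratios scaling and after quantile normalization, and 0 to 1 when leaving out a library. Under median-of-ratios scaling 7 of the 32 calls in those libraries were lost.

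For EgfrKO over Klf5KO-labelled libraries, the count higher was 17 after median-of-ratios scaling, 17 after quantile normalization, 6 with the fibroblast covariate and 5 to 10 when leaving out a library. The count lower was 0 with the fibroblast covariate. The median was 0.206, 0.199 and 0.434 under these 3 settings, against 0.006 as reported.

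For EgfrKO over Smad4KO, the count higher was 8 with the replicate block, 1 with the leukocyte covariate, 1 with the macrophage covariate, 2 with the fibroblast covariate, 12 in a fit of those 2 genotypes and 3 to 5 when leaving out a library. The count lower was 2 after median-of-ratios scaling, 1 after quantile normalization, 1 with the replicate block, 1 with the macrophage covariate, 4 with the fibroblast covariate and 1 in a fit of those 2 genotypes. The median was -0.136 with the fibroblast covariate.

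For Klf5KO-labelled over Smad4KO libraries, the count higher was 3 after median-of-ratios scaling, 5 after quantile normalization, 5 with the leukocyte covariate, 5 with the macrophage covariate, 0 with the fibroblast covariate and 6 to 10 when leaving out a library. The count lower was 13, 12, 4 and 3 with median-of-ratios scaling, quantile normalization, the leukocyte covariate and the fibroblast covariate. The median was -0.144, -0.075 and -0.551 with median-of-ratios scaling, quantile normalization and the fibroblast covariate.

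Among single members against WT, the sign turned for Ifitm3 in EgfrKO (-0.02 after median-of-ratios scaling, -0.009 with the leukocyte covariate) and for Rsad2 in Smad4KO (0.043 and 0.141 with the leukocyte and macrophage covariates, and -0.276 to 0.15 when leaving out a library, 0.15 being without Smad4KO replicate 2). In Klf5KO-labelled libraries it turned for Irf7 (-0.157 after median-of-ratios scaling, -0.154 after quantile normalization, -0.003 with the fibroblast covariate), Oas2 (-0.029 after quantile normalization, -0.078 with the fibroblast covariate) and Oas1a (-0.137 with the fibroblast covariate). The cause was not tested for any of these.

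Same-numbered libraries did not deviate together (correlations of -0.149 to 0.116), so the numbers were not treated as pairs. With the replicate block, Cmpk2 in EgfrKO (adjusted p = 0.0476) and Mx2 in Smad4KO (0.0329) passed limma's threshold, and the other calls of members against WT were as reported. A filter of at least 5 TPM left 32 of 36 members. Depth is not known from TPM, so the precision of low members such as Mx2 cannot be stated beyond the spread of 3 libraries.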

Other observations

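Further antiviral genes outside the 36 members were mostly higher in the knockout labels too. Of 39 such genes listed, with earlier results of these data known, 36 were tested; 30 rose and 2 fell in EgfrKO, 30 rose and 4 fell in Klf5KO-labelled, and 31 rose and 3 fell in Smad4KO libraries against WT, with median log2 fold changes of 0.81, 0.92 and 0.77. Of all genes 31.3%, 55.2% and 32.2% rose and 12%, 11.1% and 17.4% fell. After median-of-ratios scaling 30, 23 and 28 of the 36 rose and 2, 5 and 3 fell, where 18%, 24.6% and 25.1% of all genes rose and 22.2%, 27.5% and 24.7% fell. Gm4951, an interferon-inducible gene, averaged 39.1 ± 2.04 TPM in EgfrKO, 57.7 ± 8.31 TPM in Klf5KO-labelled, 50.5 ± 1.92 TPM in Smad4KO and 5.91 ± 1.68 TPM in WT libraries. Phf11d averaged 9.89 ± 0.702, 7.39 ± 0.286 and 10.6 ± 0.896 TPM in the knockout labels and 2.95 ± 0.298 TPM in WT.

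Ifitm1, a relative of Ifitm3 that acts at the cell surface, fell in all 3 comparisons, most in Smad4KO. It had 51.6, 56.3 and 54.2 TPM in EgfrKO, 76.5, 58.5 and 94.0 TPM in Klf5KO-labelled and 12.9, 13.2 and 10.6 TPM in Smad4KO libraries, against 96.9, 96.2 and 113 TPM in WT. No knockout library overlapped WT, and the log2 fold changes were -0.90 ± 0.14, -0.44 ± 0.14 and -2.96 ± 0.14. Ifitm2, named after its values were seen, also fell, by 0.22, 0.48 and 0.31 on the log2 scale. The gene that shared most 31-base stretches with Ifitm3 was Gm7676, at 7.41% of those of Ifitm3. Such sharing was not computed for Ifitm1 or Ifitm2, so the split of their reads was not assessed.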
